A study of Danio rerio with 9 samples.

Results

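Zebrafish larvae of the wild-type AB strain that had been microinjected with milk oligosaccharides were compared, as a single group of 6 pools, with 3 pools of non-injected larvae, out of 9 pools in all. The injected pools were 3 that received sialylated human milk oligosaccharides (SHMO) and 3 that received sialylated bovine milk oligosaccharides (SBMO), each as 4.6 nL at 100 mmol/L into the yolk at 4.7 hpf. The reference was 3 pools of larvae that were not microinjected (Ctrl). All pools were whole larvae at 5 dpf, and RNA was sequenced after poly(A) capture. A pool is written with its replicate number, such as SHMO1. The labels call the pools of a group biological replicates but do not say whether they came from separate spawnings. No pool injected with saline alone is among the 9, so the injection itself and the oligosaccharides cannot be told apart here. Levels are in TPM, the transcript share of each gene after correction for its length, and a mean of 1 TPM or more over the 9 pools was required, which left 19051 of 32520 genes. The genes described are those in which all 6 injected pools lay above, or all 6 below, the 3 Ctrl pools, and there were 3342 of them.

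At 5 dpf a larva has a working liver, exocrine pancreas and gut, is using up the last of its yolk, and takes up salts from the water through ionocytes in its skin. Milk oligosaccharides are sugars built on lactose, and the sialylated ones carry sialic acid, which cells also attach to their own glycoproteins and gangliosides. The exocrine pancreas makes zymogens such as trypsins, elastases and carboxypeptidases. Enterocytes and liver pack lipid into lipoproteins that carry apolipoproteins. Nutrients of the yolk reach larval tissues through the yolk syncytial layer.

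In injected larvae 26 of 27 exocrine pancreas genes, 24 of 37 intestinal genes, 24 of 36 lipoprotein genes and 20 of 40 ionocyte and kidney genes were called lower, and 25 of 67 neuron genes were called higher. The falls were not all equal in the 2 injections, and SBMO pools were lower than SHMO pools in 12 intestinal and 7 lipoprotein genes. In the joint comparison of injected with Ctrl pools, 3127 of the 19051 genes were called (16.4%), 1322 higher (6.94%) and 1805 lower (9.47%). A gene was called at a Benjamini-Hochberg adjusted p of at most 0.05 from limma and a log2(FC), on log2(scaled TPM + 0.1), of at least 0.58 in size. Before adjustment, 7347 genes had a p below 0.05. The median log2(FC) of all genes tested was 0.04, and the median standard error was 0.184. All 6 injected pools lay to a single side of the Ctrl pools in 3342 genes (17.5%), above in 1703 (8.94%) and below in 1639 (8.6%). Of the genes that lay above, 838 were also called higher, and of those below 1096 were also called lower. The same pools decide both measures, so their overlap is a description. The genes above took 12.5% of all TPM in injected and 8.62% in Ctrl pools, and the genes below took 7.25% in injected and 11.4% in Ctrl pools. The direction of these differences was set by the rule that picked the genes, and only their size is described. A gap of at least 1 log2 unit between the nearest injected and Ctrl pools was seen in 15 genes above and 83 below. SBMO pools differed from SHMO pools in 871 of all genes tested (4.57%), in 18 of the 1703 genes above (1.06%) and in 44 of the 1639 below (2.69%). The rule that picks genes above or below tends to leave out genes in which the 2 injections part. The smaller shares there are thus partly set by the rule and do not measure how alike the injections are.

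**Figure D1:**
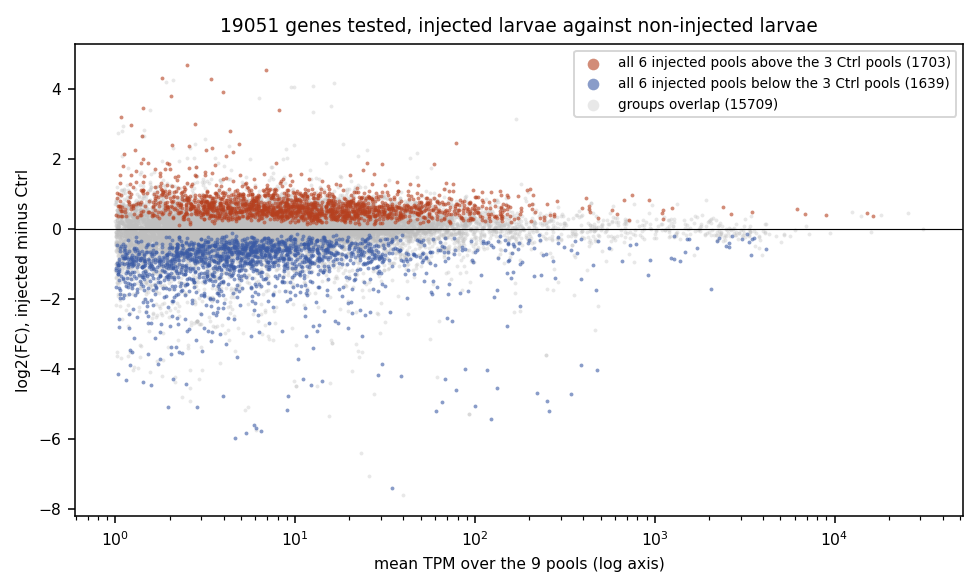
Each point is a gene, with its mean TPM over the 9 pools on a log axis and its log2(FC), injected minus Ctrl. The genes with all 6 injected pools above (1703) or below (1639) the Ctrl pools are coloured, and the falls reach further from 0 than the rises among genes above 10 TPM.

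The number of called genes depended on single pools. It was 854 without Ctrl3, 1484 without Ctrl1, 1666 without Ctrl2, 1661 without SHMO2, 1516 without SHMO3 and 2049 without SBMO2. SHMO1 stood apart from the other injected pools. On the first principal component it lay at -21.1, while the other SHMO pools lay at 36.0 and 34.1, the SBMO pools at 43.1, 58.1 and 33.4, and the Ctrl pools at -46.4, -58.1 and -79.1. Without SHMO1 there were 4288 called genes, and 6493 genes (34.1%) had the remaining 5 injected pools to a single side, 3467 above and 3026 below. Of the genes called with all pools, 0 were called in the opposite direction in any of these settings. With the 6 injected pools fitted as a single group 1977 genes were called, and 17 of the 91 genes named by rule lost their call: SLC1A4, PTF1A, cyp2ad6, MVD, SQLE, RRM2, FKBP5, CHAC1, crx, dbpb, nfil3-6, c3b.2, TIMP4, irg1l, ALDOC (ENSDARG00000057661), SLC4A4 (ENSDARG00000013730) and COX5B. Between 24452 and 25305 genes were above 0 TPM in each pool.

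The gene lists below were compiled by name, and each is given by its counts beside the shares of all genes tested, 9.47% called lower and 6.94% called higher. For counts of genes with all 6 injected pools below or above Ctrl, the shares of all genes tested are 8.6% and 8.94%. Lists of digestive, ionocyte, skin and blood genes lay low in injected pools, with SHMO1 at or above the Ctrl level in several of them, and lists of neuron, glia and cell division genes lay high in most injected pools. In the glutamate receptor list SHMO1 lay within the Ctrl range, and in the replication list SBMO2 lay at -0.37, below all Ctrl pools. The level of a list in a pool is the median over its genes of the log2 value minus the gene's mean over the 9 pools.

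**Figure D2:**
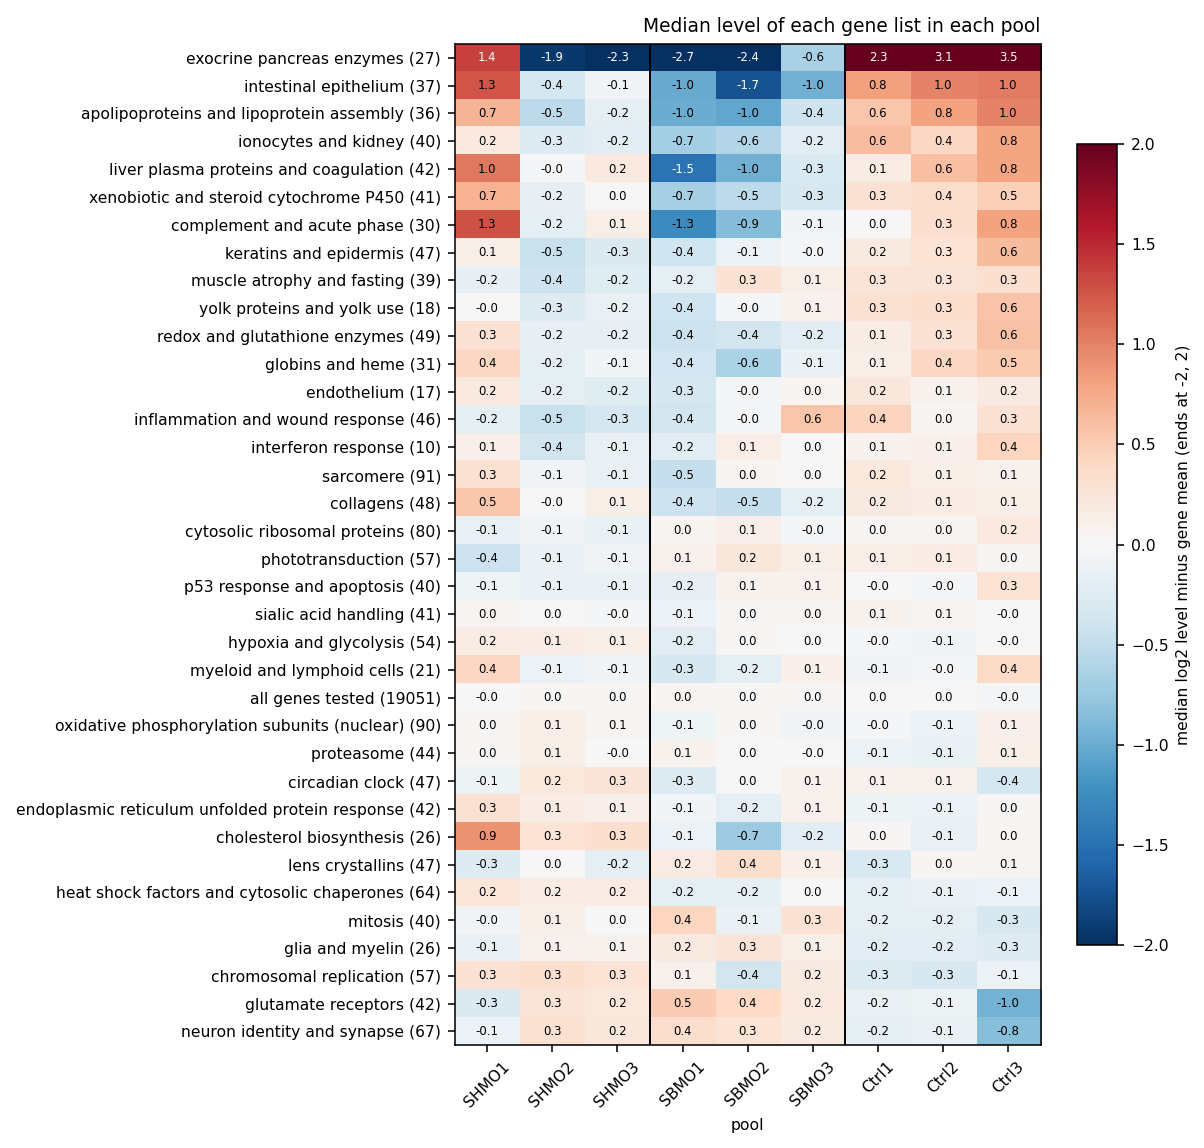
Rows are gene lists with the number of genes tested, ordered by their median log2(FC). Columns are pools, with SHMO and SBMO pools left of Ctrl pools, and each cell is the median log2 level relative to the mean of the 9 pools. The exocrine pancreas list runs between -2.68 and 1.37 in injected pools and between 2.28 and 3.48 in Ctrl pools, and SHMO1 is the injected pool nearest to Ctrl in this list.

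The exocrine pancreas list, of zymogens and other genes such as the transcription factor PTF1A, had the lowest median log2(FC) of all lists. Of 27 members tested, 26 were called lower and 1 higher, and 25 lay below and 1 above Ctrl in all 6 injected pools, with a median log2(FC) of -4.46. Their summed level was 3017, 226 and 202 TPM in SHMO pools and 131, 156 and 708 TPM in SBMO pools, against 4948, 6858 and 9328 TPM in Ctrl pools. SHMO1 held the highest sum of the injected pools and SBMO3 the next, and the groups did not overlap. In bulk RNA of whole larvae, fewer cells of a type and less RNA per cell cannot be told apart. Without SHMO1 the count was 26 lower and the median -5.07, and the count lay between 12 and 26 with 1 pool left out (12 without Ctrl3).

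Per-pool values run from replicate 1 to 3 and are TPM as deposited. The trypsin-like gene zgc:92590 (ENSDARG00000040282) stood at 0.46, 0.24 and 0.08 TPM in SHMO pools and 0.34, 0.13 and 0.31 TPM in SBMO pools, against 11.9, 12.6 and 27 TPM in Ctrl pools. All 6 injected pools were below 0.5 TPM, SHMO1 included (log2(FC) of -5.61 ± 0.42 (SE), adjusted p = 0.000541). For CEL (ENSDARG00000029822), a copy of the bile salt-activated lipase gene that digests cholesteryl esters, the values were 0.42, 0 and 0.03 TPM in SHMO pools and 0.29, 0.05 and 0.1 TPM in SBMO pools, against 9.35, 10.6 and 20.9 TPM in Ctrl pools. The nearest injected and Ctrl pools were 4.14 log2 units apart (log2(FC) of -5.98 ± 0.57 (SE), adjusted p = 0.00101). SYCN (ENSDARG00000090899), which encodes the zymogen granule protein syncollin, had 4.35, 0 and 0.56 TPM in SHMO pools and 0, 0 and 0.18 TPM in SBMO pools, against 10.5, 15.9 and 26.6 TPM in Ctrl pools. It was listed at 0 in 3 injected pools, so its log2(FC) of -5.79 depends on the added 0.1. PTF1A (ENSDARG00000014479), the transcription factor that specifies the pancreas and is also used in cerebellum and retina, was the list's single called rise, with 2.45, 2.77 and 3.26 TPM in SHMO pools and 3.85, 3.35 and 2.47 TPM in SBMO pools, against 1.46, 2.07 and 1.71 TPM in Ctrl pools. All injected pools lay above Ctrl (log2(FC) of 0.73 ± 0.21 (SE), adjusted p = 0.0376), and the call was lost without Ctrl1 (0.122), Ctrl2 (0.0502), Ctrl3 (0.108), SBMO1 (0.0587), SBMO2 (0.0755), SHMO2 (0.0747) or SHMO3 (0.0875), adjusted p in brackets.

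**Figure D3:**
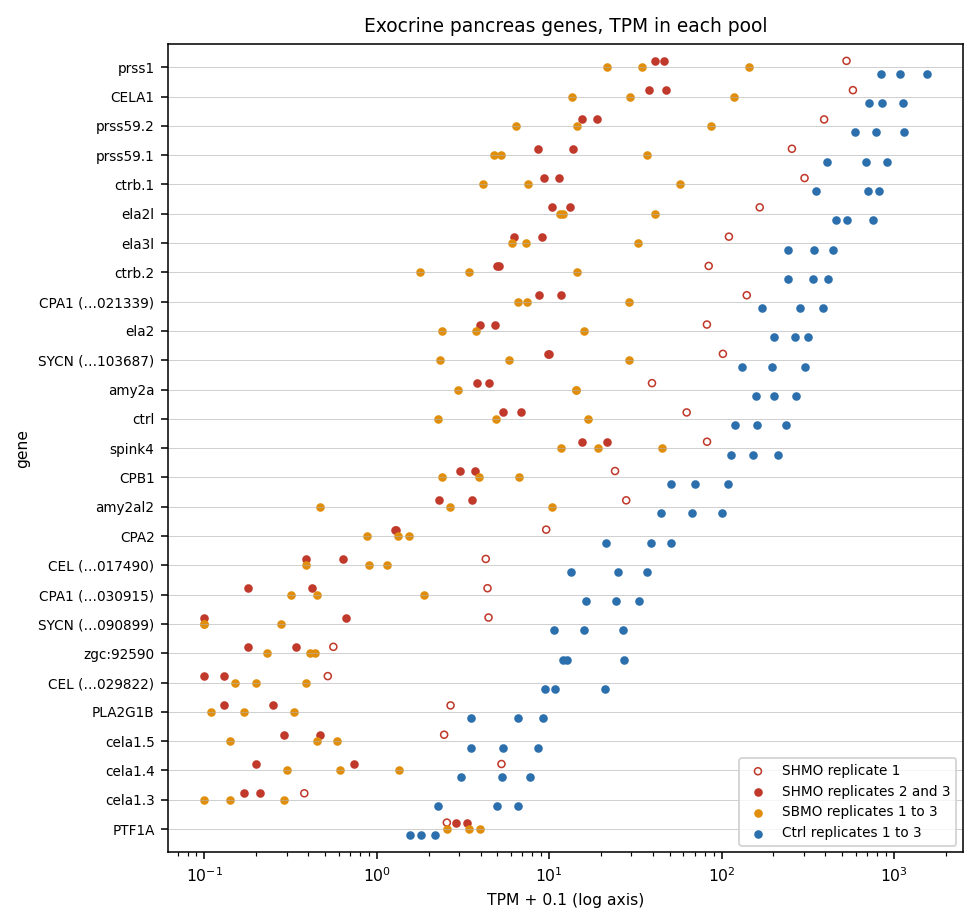
Each row is a tested gene of the exocrine pancreas list, with TPM + 0.1 in each pool on a log axis. SHMO1 (open circles) lies between the other injected pools and Ctrl for most genes, while zgc:92590, the CEL copy named above and cela1.3 are under 0.5 TPM in all 6 injected pools.

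Most genes of the intestinal epithelium list were called lower, while SHMO1 lay in or above the Ctrl range. Of 37 members, 24 were called lower and 0 higher, with a median log2(FC) of -1.45. The median was -0.66 in SHMO and -2.63 in SBMO pools. SBMO pools were lower than SHMO pools in 12 members and higher in 0, against 4.57% of all genes in either direction. The called-lower count lay between 4 and 25 with 1 pool left out (12 without Ctrl1, 10 without Ctrl2, 4 without Ctrl3, 15 without SHMO3). In all, 7 lay below Ctrl in all 6 injected pools, and 26 did in the 5 injected pools other than SHMO1. Of all 19051 genes, 1639 lay below with the 6 pools and 3026 with these 5. The summed level was 1800, 793 and 957 TPM in SHMO pools and 809.6, 427 and 729 TPM in SBMO pools, against 1623, 1818 and 2115 TPM in Ctrl pools, and SHMO1 lay within the Ctrl range. The chitinase gene chia.2 (ENSDARG00000099185) had 225, 38.6 and 67.2 TPM in SHMO pools and 30.0, 18.6 and 32.7 TPM in SBMO pools, against 294, 363 and 291 TPM in Ctrl pools (log2(FC) of -2.77 ± 0.44 (SE), adjusted p = 0.00607). The tetraspanin-like TM4SF5 (ENSDARG00000055185) had 4.75, 1.73 and 2.07 TPM in SHMO pools and 0.91, 0.31 and 0.74 TPM in SBMO pools, against 5.72, 4.57 and 8.02 TPM in Ctrl pools (log2(FC) of -2.17 ± 0.36 (SE), adjusted p = 0.00669). In both genes SHMO1 was the highest injected pool, and still below every Ctrl pool in scaled TPM.

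Of 36 genes of apolipoproteins and lipoprotein assembly, 24 were called lower and 0 higher, a count that lay between 7 and 28 with 1 pool left out (15 without Ctrl2, 7 without Ctrl3). All 6 injected pools lay below Ctrl in 11 members, and the 5 others than SHMO1 did in 27, against 3026 of all 19051 genes with those 5. The median log2(FC) was -1.29, and by injection it was -0.91 in SHMO and -1.40 in SBMO pools. SBMO pools were lower than SHMO pools in 7 members and higher in 1. LCAT (ENSDARG00000099424), the plasma enzyme that esterifies cholesterol on lipoproteins, had 2.91, 0.82 and 1.31 TPM in SHMO pools and 1.74, 1.24 and 1.79 TPM in SBMO pools, against 8.62, 7.35 and 12.3 TPM in Ctrl pools (log2(FC) of -2.55 ± 0.33 (SE), adjusted p = 0.00298). apoeb (ENSDARG00000040295), an apolipoprotein E gene also made in yolk syncytial layer and microglia, had 475, 317 and 373 TPM in SHMO pools and 271, 296 and 321 TPM in SBMO pools, against 688, 614 and 729 TPM in Ctrl pools (log2(FC) of -1.03 ± 0.14 (SE), adjusted p = 0.00319). Groups of apoeb and LCAT did not overlap, and the SHMO and SBMO pools of apoeb lay close together.

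Yolk use was represented by few tested genes. Of 18 members, 6 were called lower and 1 higher, and 8 lay below Ctrl in all injected pools. The called-lower count lay between 3 and 7 with 1 pool left out (3 without Ctrl3). The called falls were 5 lysosomal cathepsin genes and RBP4. ctsl.1 (ENSDARG00000003902), a cathepsin L gene, had 95.8, 97.1 and 113 TPM in SHMO pools and 135, 86.7 and 161 TPM in SBMO pools, against 277, 238 and 266 TPM in Ctrl pools (log2(FC) of -1.24 ± 0.16 (SE), adjusted p = 0.00298). ctss2.2 (ENSDARG00000013771), a cathepsin S gene, had 11.7, 10.6 and 10.8 TPM in SHMO pools and 5.96, 8.02 and 8.04 TPM in SBMO pools, against 17.7, 14.5 and 21.3 TPM in Ctrl pools (log2(FC) of -0.99 ± 0.16 (SE), adjusted p = 0.00637). RBP4 (ENSDARG00000101199), which carries retinol in plasma, was among the most abundant called genes below Ctrl, with 1292, 1162 and 1379 TPM in SHMO pools and 1162, 1090 and 1312 TPM in SBMO pools, against 2012, 1530 and 2303 TPM in Ctrl pools (log2(FC) of -0.67 ± 0.12 (SE), adjusted p = 0.0091). Without Ctrl3 its change was under the size threshold (adjusted p = 0.0403). The amino acid transporter gene SLC1A4 (ENSDARG00000000551) was called the other way and its groups overlapped, with 8.14, 10.7 and 7.17 TPM in SHMO pools and 11, 8.21 and 9.64 TPM in SBMO pools, against 7.54, 5.76 and 3.57 TPM in Ctrl pools (log2(FC) of 0.71 ± 0.21 (SE), adjusted p = 0.0391). For SLC1A4 the call was lost without Ctrl2 (0.0719), Ctrl3 (0.134), SBMO1 (0.0629), SBMO2 (0.0634), SBMO3 (0.0583), SHMO2 (0.0846) or SHMO3 (0.0624), adjusted p in brackets.

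Liver genes were lower in part of their list, and mainly in SBMO pools. The list's median log2(FC) was -0.09 in SHMO and -1.39 in SBMO pools. SBMO pools were lower than SHMO pools in 16 members and higher in 0, against 4.57% of all genes in either direction. Of 42 genes for plasma proteins and coagulation, 14 were called lower and 0 higher, 6 lay below Ctrl in all injected pools, and the called-lower count lay between 3 and 22 with 1 pool left out (7 without Ctrl1, 6 without Ctrl2, 3 without Ctrl3, 22 without SHMO1, 9 without SHMO2, 6 without SHMO3, 8 without SBMO2). Their summed level was 4594, 2940 and 3371 TPM in SHMO pools and 1801, 1995 and 2631 TPM in SBMO pools, against 3876, 3579 and 4861 TPM in Ctrl pools, with SHMO1 inside the Ctrl range. F7 (ENSDARG00000100782), coagulation factor VII, had 1.59, 0.91 and 1.02 TPM in SHMO pools and 0.28, 0.32 and 0.45 TPM in SBMO pools, against 2.5, 2.76 and 2.08 TPM in Ctrl pools (log2(FC) of -1.80 ± 0.28 (SE), adjusted p = 0.0053). TAT (ENSDARG00000069630), the tyrosine aminotransferase of hepatocytes, had 12.5, 8.29 and 10.7 TPM in SHMO pools and 10.5, 16.7 and 20.5 TPM in SBMO pools, against 27.16, 32.7 and 40.4 TPM in Ctrl pools (log2(FC) of -1.41 ± 0.24 (SE), adjusted p = 0.00723). The groups of F7 and TAT did not overlap.

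Of 41 cytochrome P450 genes, 15 were called lower and 1 higher, and the called-lower count lay between 2 and 20 with 1 pool left out (6 without Ctrl1, 6 without Ctrl2, 2 without Ctrl3, 7 without SHMO2, 6 without SHMO3, 8 without SBMO2). CYP7A1 (ENSDARG00000069018), the rate-limiting enzyme of bile acid synthesis, had 14.1, 6 and 6.23 TPM in SHMO pools and 2.95, 1.09 and 2.52 TPM in SBMO pools, against 23, 20.1 and 26.1 TPM in Ctrl pools (log2(FC) of -2.49 ± 0.32 (SE), adjusted p = 0.00298). It was lower in SBMO than in SHMO pools by a log2 difference of -1.87 ± 0.37 (SE), adjusted p = 0.0239. In the whole P450 list the median log2(FC) was -0.30 in SHMO and -0.77 in SBMO pools. The list's level was 0.688 in SHMO1, above all Ctrl pools (0.284 to 0.471), and -0.161 and 0.01 in SHMO2 and SHMO3. In SBMO pools it was -0.671, -0.519 and -0.318. SBMO pools were lower than SHMO pools in 7 of its members and higher in 1. cyp2k16 (ENSDARG00000102981) had 3.85, 2.31 and 2.14 TPM in SHMO pools and 2.11, 1.2 and 2.13 TPM in SBMO pools, against 5.67, 5.84 and 8.56 TPM in Ctrl pools (log2(FC) of -1.58 ± 0.25 (SE), adjusted p = 0.00548). The single rise, cyp2ad6 (ENSDARG00000042956) (log2(FC) of 0.59 ± 0.18 (SE), adjusted p = 0.0423), had overlapping groups, with 20.9, 16.1 and 19.1 TPM in SHMO pools and 7.68, 11.6 and 12.5 TPM in SBMO pools, against 9.62, 8.21 and 9.34 TPM in Ctrl pools, and the call was lost without Ctrl1 (0.103), Ctrl2 (0.113), Ctrl3 (0.105), SBMO2 (0.0801), SBMO3 (0.069), SHMO1 (0.0549), SHMO2 (0.0597) or SHMO3 (0.0917), adjusted p in brackets. Of 49 redox and glutathione genes, 16 were called lower and 0 higher, and 12 lay below Ctrl in all injected pools. That called-lower count lay between 4 and 22 with 1 pool left out (7 without Ctrl2, 4 without Ctrl3, 9 without SHMO3, 9 without SBMO2). The redox list's median log2(FC) was -0.30 in SHMO and -0.68 in SBMO pools. SBMO pools were lower than SHMO pools in 5 of its members and higher in 0. Its level was 0.282 in SHMO1, within the Ctrl range of 0.149 to 0.592. The glutathione peroxidase genes, which reduce peroxides, led the list. gpx1a (ENSDARG00000018146) had 53.3, 41.8 and 42.7 TPM in SHMO pools and 53.2, 36.4 and 40.0 TPM in SBMO pools, against 84.3, 81.3 and 104 TPM in Ctrl pools (log2(FC) of -1.04 ± 0.15 (SE), adjusted p = 0.00411). gpx4a (ENSDARG00000068478), whose product acts on lipid peroxides, had 268, 155 and 171 TPM in SHMO pools and 119, 194 and 196 TPM in SBMO pools, against 383, 458 and 575 TPM in Ctrl pools (log2(FC) of -1.41 ± 0.24 (SE), adjusted p = 0.00723).

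Ionocytes take up and secrete ions in the larval skin, and the kidney shares many of their transporters. Of 40 ionocyte and kidney genes, 20 were called lower and 1 higher, and 19 lay below and 2 above Ctrl in all 6 injected pools, with a median log2(FC) of -0.88. The called-lower count lay between 13 and 23 with 1 pool left out (13 without Ctrl3). The summed level was 1263, 1034 and 1044 TPM in SHMO pools and 897, 875 and 1058 TPM in SBMO pools, against 1397, 1203 and 1356 TPM in Ctrl pools, with SHMO1 inside the Ctrl range. The list's level was 0.194 in SHMO1, between -0.677 and -0.226 in the other injected pools, and between 0.413 and 0.783 in Ctrl pools. In the 2 called members with the smallest p, SHMO1 lay below Ctrl with the other injected pools. ca15a (ENSDARG00000015654), a carbonic anhydrase of proton-secreting ionocytes, had 7.1, 4.75 and 4.77 TPM in SHMO pools and 4.26, 2.41 and 5.2 TPM in SBMO pools, against 32.8, 22.1 and 38.2 TPM in Ctrl pools (log2(FC) of -2.74 ± 0.24 (SE), adjusted p = 0.000923). foxi3b (ENSDARG00000009550), a transcription factor needed for ionocyte fate in zebrafish skin, had 6.18, 5.21 and 3.83 TPM in SHMO pools and 3.94, 3.15 and 5.12 TPM in SBMO pools, against 15.5, 11 and 15.3 TPM in Ctrl pools (log2(FC) of -1.63 ± 0.18 (SE), adjusted p = 0.00205). In ca15a and foxi3b the highest injected pool lay 1.79 and 1.00 log2 units under the lowest Ctrl pool. A sodium bicarbonate cotransporter gene, SLC4A4 (ENSDARG00000013730), was called higher, with 42.1, 57.6 and 59.96 TPM in SHMO pools and 45.2, 36.8 and 40.2 TPM in SBMO pools, against 38, 32.1 and 20.1 TPM in Ctrl pools (log2(FC) of 0.64 ± 0.19 (SE), adjusted p = 0.0426). Its groups overlapped as deposited, and the call was lost without Ctrl1 (0.0565), Ctrl2 (0.0631), Ctrl3 (0.144), SBMO1 (0.0658), SBMO2 (0.0719), SBMO3 (0.0596), SHMO2 (0.0901) or SHMO3 (0.0952), adjusted p in brackets.

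In the skin list, 47 keratin and epidermis genes were tested, 16 were called lower and 0 higher, and 16 lay below Ctrl in all injected pools. The called-lower count lay between 3 and 23 with 1 pool left out (10 without Ctrl1, 9 without Ctrl2, 3 without Ctrl3, 10 without SHMO2, 9 without SHMO3). Without SHMO1 25 lay below Ctrl, against 3026 of all 19051 genes. The summed level was 21524, 16586 and 18949 TPM in SHMO pools and 16969, 18761 and 19361 TPM in SBMO pools, against 25568, 22314 and 28031 TPM in Ctrl pools, and the groups did not overlap. anxa1c (ENSDARG00000104359), an annexin gene, had 10.4, 5.72 and 4.88 TPM in SHMO pools and 22.9, 6.8 and 6.49 TPM in SBMO pools, against 47.7, 39.2 and 42 TPM in Ctrl pools (log2(FC) of -2.40 ± 0.37 (SE), adjusted p = 0.00528). SBMO1 was the highest injected pool there. PKP1 (ENSDARG00000052705), the desmosome protein plakophilin 1, had 3.22, 1.7 and 1.8 TPM in SHMO pools and 2.35, 2.09 and 2.63 TPM in SBMO pools, against 5.98, 4.83 and 6.69 TPM in Ctrl pools (log2(FC) of -1.35 ± 0.21 (SE), adjusted p = 0.00528). krt4 (ENSDARG00000017624), a keratin of the outer epidermis, was the most abundant gene below Ctrl that met the naming rule, with 3716, 2505 and 2578 TPM in SHMO pools and 2185, 2798 and 3153 TPM in SBMO pools, against 4675, 3984 and 5146 TPM in Ctrl pools (log2(FC) of -0.74 ± 0.16 (SE), adjusted p = 0.0153). Its call was lost without Ctrl3 (adjusted p = 0.0764).

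Of 31 globin and heme genes, 10 were called lower and 0 higher, and 11 lay below Ctrl in all injected pools, while the called-lower count lay between 4 and 12 with 1 pool left out (4 without Ctrl3). The list's median log2(FC) was -0.30 in SHMO and -0.73 in SBMO pools. SBMO pools were lower than SHMO pools in 4 members and higher in 0. The list's level was 0.414 in SHMO1, within the Ctrl range of 0.116 to 0.529. SLC4A1 (ENSDARG00000024560), the anion exchanger of the red cell membrane that is also found in other acid-base transporting cells, had 2.03, 0.68 and 0.74 TPM in SHMO pools and 0.39, 0.38 and 0.57 TPM in SBMO pools, against 5.49, 4.09 and 8.13 TPM in Ctrl pools (log2(FC) of -2.92 ± 0.35 (SE), adjusted p = 0.00238). HEBP2 (ENSDARG00000042630), a heme-binding protein gene, had 12.4, 8.43 and 9.9 TPM in SHMO pools and 13.9, 8.93 and 10.9 TPM in SBMO pools, against 29.4, 29.3 and 42.6 TPM in Ctrl pools (log2(FC) of -1.67 ± 0.19 (SE), adjusted p = 0.00205). The groups of neither gene overlapped.

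Muscle genes were called lower in part of their list. Of 91 sarcomere genes, 15 were called lower and 0 higher, a share of called-lower genes of 16.5% against 9.47% of all genes. The count lay between 4 and 17 with 1 pool left out (8 without Ctrl2, 4 without Ctrl3), and the summed level overlapped, with 140640, 144330 and 138860 TPM in SHMO pools and 117690, 155000 and 146260 TPM in SBMO pools, against 141370, 119780 and 124530 TPM in Ctrl pools. The called members with the smallest p were of low level. tnnc1a (ENSDARG00000011400), a troponin C gene, had 0.67, 0.12 and 0.18 TPM in SHMO pools and 0.39, 0.06 and 0.23 TPM in SBMO pools, against 4.28, 3.77 and 5.85 TPM in Ctrl pools (log2(FC) of -3.86 ± 0.49 (SE), adjusted p = 0.00298). TNNI2 (ENSDARG00000005841), a troponin I gene, had 3.61, 1.53 and 1.25 TPM in SHMO pools and 1.07, 1.22 and 1.78 TPM in SBMO pools, against 6.12, 5.77 and 7.91 TPM in Ctrl pools (log2(FC) of -1.99 ± 0.31 (SE), adjusted p = 0.00527). Troponins regulate contraction by calcium. pvalb4 (ENSDARG00000024433), a calcium-binding parvalbumin, was abundant and lower, with 1567, 990.0 and 906 TPM in SHMO pools and 886, 1086 and 1042 TPM in SBMO pools, against 1755, 1724 and 2431 TPM in Ctrl pools (log2(FC) of -0.90 ± 0.19 (SE), adjusted p = 0.0143). That call was lost without Ctrl3 (adjusted p = 0.0698).

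Of 39 genes linked to muscle atrophy and fasting, 14 were called lower and 2 higher, and the called-lower count lay between 8 and 16 with 1 pool left out (9 without Ctrl1, 9 without Ctrl2, 8 without Ctrl3, 9 without SHMO3). SBMO pools were higher than SHMO pools in 9 members and lower in 3, against 4.57% of all genes in either direction. The list's level was 0.296 in SBMO2, within the Ctrl range of 0.253 to 0.325, and between -0.415 and 0.115 in the other injected pools. The leading members were both copies of GADD45A, a stress-induced growth arrest gene. GADD45A (ENSDARG00000104571) had 18.3, 14.5 and 14.2 TPM in SHMO pools and 28, 18.6 and 29.2 TPM in SBMO pools, against 47, 40.0 and 51.1 TPM in Ctrl pools (log2(FC) of -1.24 ± 0.15 (SE), adjusted p = 0.00267). GADD45A (ENSDARG00000043581) had 4.85, 3.81 and 3.66 TPM in SHMO pools and 3.37, 4.7 and 5.27 TPM in SBMO pools, against 10.4, 9.15 and 12.7 TPM in Ctrl pools (log2(FC) of -1.34 ± 0.18 (SE), adjusted p = 0.00347). The p53 list shares them, and there 5 of 40 were called lower and 4 higher, with called-lower counts between 3 and 7 with 1 pool left out (3 without Ctrl1). pidd1 (ENSDARG00000074626), an adaptor of p53-induced death signalling, had 2.27, 2.58 and 2.59 TPM in SHMO pools and 2.07, 1.63 and 2.36 TPM in SBMO pools, against 1.18, 0.9 and 0.84 TPM in Ctrl pools (log2(FC) of 1.11 ± 0.18 (SE), adjusted p = 0.00672).

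**Figure D4:**
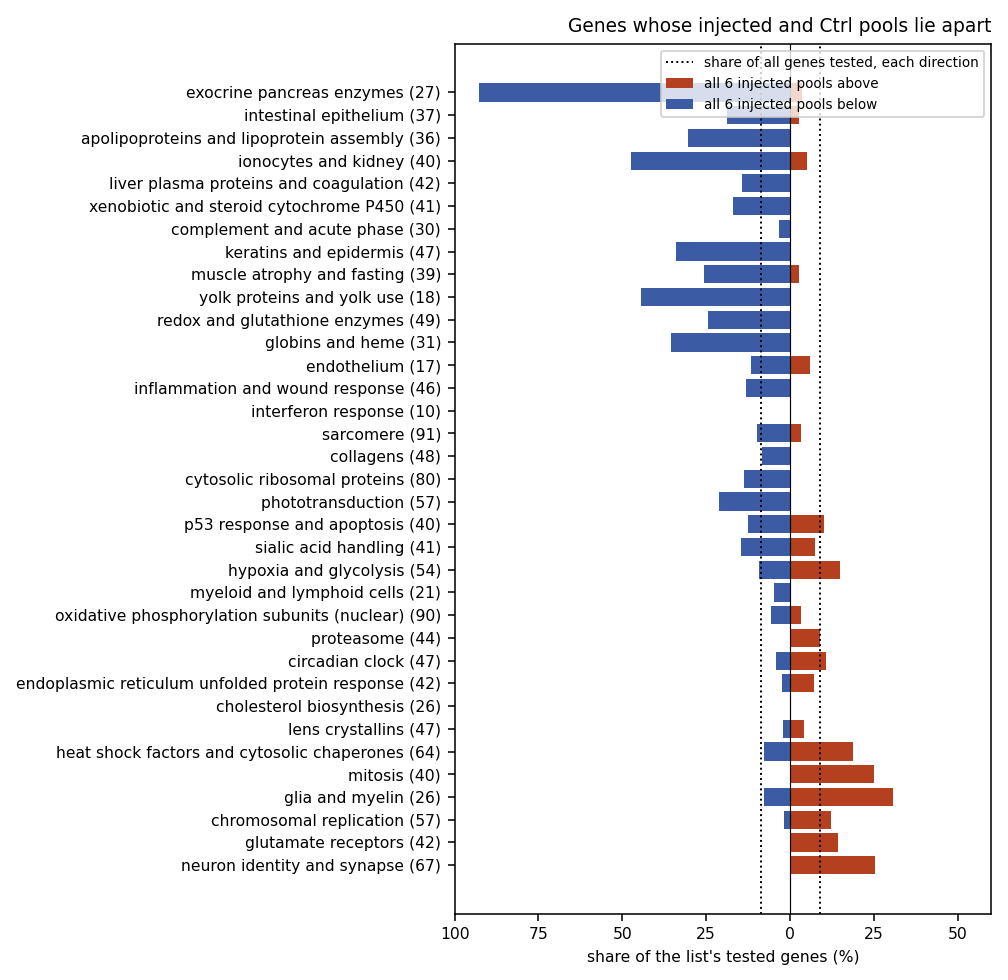
Bars give the share of each list's tested genes with all 6 injected pools above (right) or below (left) the 3 Ctrl pools, and dotted lines give the shares of all genes tested, 8.94% above and 8.6% below. The exocrine pancreas and ionocyte lists reach furthest below, with 25 of 27 and 19 of 40 genes.

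In the retina, a part of the phototransduction list was called lower and most members were not called. Of 57 members, 14 were called lower and 1 higher, 12 lay below Ctrl in all injected pools, and the median log2(FC) was -0.12, with 26 members above 0 and 31 below. By injection the median was -0.34 in SHMO and -0.02 in SBMO pools. The list's level was -0.407, -0.14 and -0.077 in SHMO pools, below the Ctrl range of 0.029 to 0.15. In SBMO pools it was 0.09, 0.233 and 0.121, within or above that range. SBMO pools were higher than SHMO pools in 10 members and lower in 1, against 4.57% of all genes in either direction. The called-lower count lay between 6 and 14 with 1 pool left out (9 without Ctrl1, 6 without Ctrl3). The called member with the highest level was pde6ha (ENSDARG00000102558), the inhibitory subunit of cone phosphodiesterase, with 709, 968 and 1029 TPM in SHMO pools and 1114, 1566 and 1834 TPM in SBMO pools, against 3890, 3704 and 3597 TPM in Ctrl pools (log2(FC) of -1.73 ± 0.17 (SE), adjusted p = 0.00119). The highest injected pool, SBMO3, was under the lowest Ctrl pool by 0.99 log2 units. GUCA1A (ENSDARG00000100747), which activates guanylate cyclase when calcium is low, had 2.35, 2.39 and 1.39 TPM in SHMO pools and 4.36, 6.66 and 14.9 TPM in SBMO pools, against 29.1, 24.4 and 27.3 TPM in Ctrl pools (log2(FC) of -2.77 ± 0.32 (SE), adjusted p = 0.00234). crx (ENSDARG00000011989), the transcription factor of photoreceptors, had 26.5, 43.7 and 47 TPM in SHMO pools and 54.2, 47.5 and 49.7 TPM in SBMO pools, against 31.4, 27 and 15.2 TPM in Ctrl pools (log2(FC) of 0.87 ± 0.24 (SE), adjusted p = 0.0323), and its groups overlapped. For crx the call was lost without Ctrl1 (0.0536), Ctrl2 (0.0549), Ctrl3 (0.123), SBMO2 (0.0626), SHMO2 (0.0727) or SHMO3 (0.0747), adjusted p in brackets.

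Few lens genes were called. Of 47 members, 2 were called higher and 1 lower, with called-higher counts between 0 and 3 with 1 pool left out (0 without Ctrl1, 1 without Ctrl3, 1 without SHMO2, 1 without SHMO3, 1 without SBMO2). crygm5 (ENSDARG00000041179), a gamma crystallin, had 37.7, 34.7 and 27 TPM in SHMO pools and 19.4, 49.9 and 43.7 TPM in SBMO pools, against 8.3, 11.3 and 14.4 TPM in Ctrl pools (log2(FC) of 1.58 ± 0.31 (SE), adjusted p = 0.0118), and lost its call without Ctrl1 (adjusted p = 0.0518). CRYBB1 (ENSDARG00000068507), a beta crystallin, had 1902, 2960 and 2323 TPM in SHMO pools and 2185, 1974 and 2118 TPM in SBMO pools, against 1049, 1762 and 1031 TPM in Ctrl pools (log2(FC) of 0.82 ± 0.21 (SE), adjusted p = 0.0244). Its groups overlapped after scaling but not as deposited, and the call was lost without Ctrl1 (0.0877), Ctrl3 (0.114), SBMO2 (0.0508), SHMO2 (0.0556) or SHMO3 (0.0579), adjusted p in brackets. BFSP1 (ENSDARG00000074919), the beaded filament protein filensin, was called lower, with 26.3, 17.7 and 5.65 TPM in SHMO pools and 9.06, 9 and 18.3 TPM in SBMO pools, against 29, 43.2 and 32.3 TPM in Ctrl pools (log2(FC) of -1.47 ± 0.42 (SE), adjusted p = 0.0373). For BFSP1 the call was lost without Ctrl1 (0.069), Ctrl2 (0.126), Ctrl3 (0.116), SBMO1 (0.0615), SBMO2 (0.0775) or SHMO2 (0.0625), adjusted p in brackets.

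A part of the neuron list was called higher in injected larvae. Of 67 genes of neuron identity and the synapse, 25 were called higher and 0 lower, and 17 lay above Ctrl in all injected pools, with a median log2(FC) of 0.66. The called-higher count lay between 5 and 36 with 1 pool left out (13 without Ctrl1, 5 without Ctrl3, 12 without SHMO2, 10 without SHMO3, 14 without SBMO2). Without SHMO1, 47 of 67 lay above Ctrl, against 3467 of all 19051 genes. The list's level was -0.122 in SHMO1, between 0.187 and 0.357 in the other injected pools, and -0.194, -0.135 and -0.848 in Ctrl1 to Ctrl3, so Ctrl3 was the lowest pool. The summed level was 3151, 4425 and 4285 TPM in SHMO pools and 4698, 4021 and 3999 TPM in SBMO pools, against 3114, 2769 and 1940 TPM in Ctrl pools. vamp1a (ENSDARG00000031283), a synaptic vesicle fusion protein, had 72.5, 84.9 and 109 TPM in SHMO pools and 115, 93.4 and 90.6 TPM in SBMO pools, against 37.6, 45.8 and 29.8 TPM in Ctrl pools (log2(FC) of 1.3 ± 0.18 (SE), adjusted p = 0.00398). STMN2 (ENSDARG00000070537), a stathmin of growing axons, had 57.1, 83.2 and 87 TPM in SHMO pools and 109.9, 72.1 and 87.2 TPM in SBMO pools, against 41, 40.0 and 28.5 TPM in Ctrl pools (log2(FC) of 1.14 ± 0.18 (SE), adjusted p = 0.00637). Both kept their calls under all alternatives tried, and SHMO1 was the lowest injected pool in each.

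Of 42 glutamate receptor genes, 13 were called higher and 0 lower, and 6 lay above Ctrl in all injected pools. The list's level was -0.291 in SHMO1, between 0.193 and 0.507 in the other injected pools, and -0.154, -0.105 and -0.951 in Ctrl1 to Ctrl3. The called-higher count lay between 0 and 24 with 1 pool left out (3 without Ctrl1, 0 without Ctrl3, 24 without SHMO1, 2 without SHMO2, 1 without SHMO3, 7 without SBMO1, 3 without SBMO2). GRM4 (ENSDARG00000040156), a metabotropic receptor, had 10.32, 15 and 11.7 TPM in SHMO pools and 15.1, 12.8 and 12.3 TPM in SBMO pools, against 8.89, 7.36 and 4.22 TPM in Ctrl pools (log2(FC) of 0.93 ± 0.21 (SE), adjusted p = 0.0187), with an adjusted p of 0.0566 without Ctrl3. GRM2 (ENSDARG00000004150), of the same receptor class, had 7.56, 11.2 and 9.26 TPM in SHMO pools and 12.8, 11 and 9.77 TPM in SBMO pools, against 7.29, 6.29 and 4.37 TPM in Ctrl pools (log2(FC) of 0.76 ± 0.18 (SE), adjusted p = 0.022). For GRM2 the call was lost without Ctrl3 (0.0856), SHMO2 (0.0513) or SHMO3 (0.055), adjusted p in brackets. Of 26 glia and myelin genes, 7 were called higher and 1 lower, and 8 lay above and 2 below Ctrl in all injected pools. The called-higher count lay between 2 and 8 with 1 pool left out (3 without Ctrl1, 3 without Ctrl2, 2 without Ctrl3, 4 without SHMO3, 4 without SBMO2). FABP7 (ENSDARG00000007697), the fatty acid-binding protein of radial glia, had 857, 1202 and 1118 TPM in SHMO pools and 1281, 983 and 1119 TPM in SBMO pools, against 581, 567 and 657 TPM in Ctrl pools (log2(FC) of 0.83 ± 0.13 (SE), adjusted p = 0.00551). OLIG2 (ENSDARG00000040946), the transcription factor of the oligodendrocyte and motor neuron lineage, had 11, 15.1 and 16.9 TPM in SHMO pools and 16.7, 16.7 and 15.9 TPM in SBMO pools, against 10.7, 8.11 and 9.04 TPM in Ctrl pools (log2(FC) of 0.69 ± 0.15 (SE), adjusted p = 0.0156), and lost its call without Ctrl2 or Ctrl3 (adjusted p = 0.0584 and 0.0588). The single called fall of the glia list was apoeb.

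**Figure D5:**
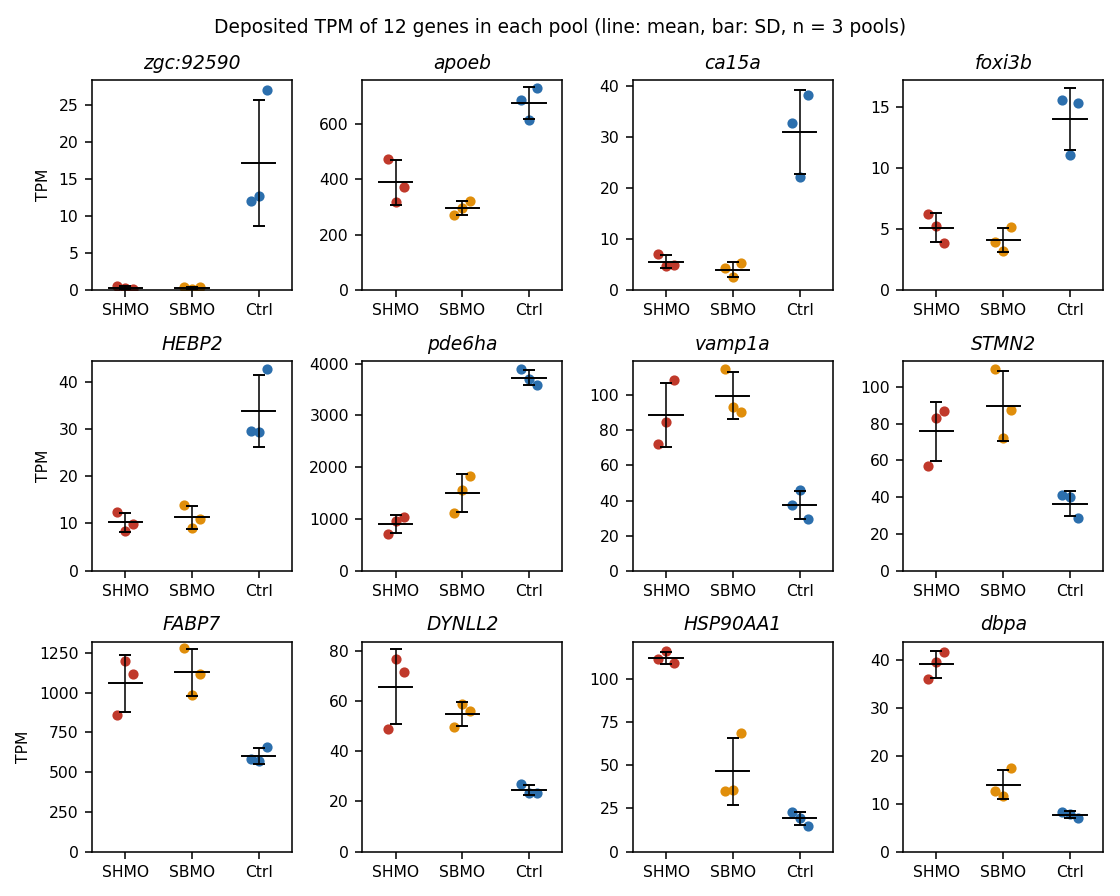
Deposited TPM of 12 named genes, with SHMO and SBMO pools left of Ctrl pools. Points are pools, lines are means and bars are SDs (n = 3 pools), on linear axes from 0. The first 6 genes are lower and the last 6 higher in injected pools, and HSP90AA1 and dbpa are also higher in SHMO than in SBMO pools.

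Part of the DNA replication and mitosis genes were called higher. Of 57 replication genes, 12 were called higher and 2 lower, with called-higher counts between 2 and 21 with 1 pool left out (5 without Ctrl1, 5 without Ctrl2, 2 without Ctrl3, 7 without SHMO2, 7 without SHMO3, 21 without SBMO2). LIG1 (ENSDARG00000060041), DNA ligase I, had 14.4, 13.6 and 13.2 TPM in SHMO pools and 11.6, 7.33 and 12.4 TPM in SBMO pools, against 6.66, 5.57 and 7.42 TPM in Ctrl pools (log2(FC) of 0.83 ± 0.16 (SE), adjusted p = 0.0101). POLD2 (ENSDARG00000095046), a subunit of DNA polymerase delta, had 8, 9.41 and 8.45 TPM in SHMO pools and 8.13, 6.56 and 7.94 TPM in SBMO pools, against 6.03, 4.8 and 4.17 TPM in Ctrl pools (log2(FC) of 0.67 ± 0.13 (SE), adjusted p = 0.0111), and fell under the size threshold without Ctrl3 (adjusted p = 0.0432). The pools of POLD2 did not overlap, and those of LIG1 overlapped as deposited but not after scaling. RRM2 (ENSDARG00000020711), a ribonucleotide reductase subunit, was called lower although SBMO1 held the highest level of all pools, with 3.55, 0.21 and 0.52 TPM in SHMO pools and 89.2, 1.38 and 0.45 TPM in SBMO pools, against 42.9, 48.1 and 61.2 TPM in Ctrl pools (log2(FC) of -4.73 ± 1.35 (SE), adjusted p = 0.036). For RRM2 the call was lost without Ctrl1 (0.0833), Ctrl2 (0.0968), Ctrl3 (0.131), SBMO2 (0.0765), SHMO2 (0.079) or SHMO3 (0.0796), adjusted p in brackets.

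Of 40 mitosis genes, 7 were called higher and 0 lower, and 10 lay above Ctrl in all injected pools. The called-higher count lay between 0 and 7 with 1 pool left out (3 without Ctrl1, 3 without Ctrl2, 0 without Ctrl3, 4 without SHMO2, 4 without SHMO3). FOXM1 (ENSDARG00000003200), a transcription factor of the G2 and M phases, had 3.86, 5.7 and 4.15 TPM in SHMO pools and 4.59, 3.41 and 4.95 TPM in SBMO pools, against 2.22, 2.67 and 1.78 TPM in Ctrl pools (log2(FC) of 0.94 ± 0.19 (SE), adjusted p = 0.0127). For FOXM1 the call was lost without Ctrl1 (0.0508) or Ctrl3 (0.06), adjusted p in brackets. CCNF (ENSDARG00000105046), cyclin F, had 4.42, 5.59 and 5.86 TPM in SHMO pools and 3.05, 4.9 and 5.41 TPM in SBMO pools, against 2.42, 2.35 and 2.23 TPM in Ctrl pools (log2(FC) of 0.98 ± 0.20 (SE), adjusted p = 0.0135), and the call was lost without Ctrl1 (0.0517) or Ctrl3 (0.0594), adjusted p in brackets. In both genes each injected pool was above each Ctrl pool.

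Cytosolic chaperone genes were called in both directions and differed between the oligosaccharides. Of 64 members, 14 were called higher and 6 lower, with called-higher counts between 9 and 16 with 1 pool left out (9 without Ctrl1, 9 without Ctrl2, 9 without Ctrl3). SBMO pools were lower than SHMO pools in 17 of the 64. HSP90AA1 (ENSDARG00000024746), an HSP90 chaperone gene, had 111, 116 and 109 TPM in SHMO pools and 34.9, 35.6 and 68.6 TPM in SBMO pools, against 22.9, 19.6 and 15.1 TPM in Ctrl pools (log2(FC) of 1.86 ± 0.21 (SE), adjusted p = 0.00205). It was lower in SBMO than in SHMO pools by a log2 difference of -1.26 ± 0.24 (SE), adjusted p = 0.0214. FKBP5 (ENSDARG00000028396), a co-chaperone of HSP90 induced by glucocorticoids, had 75.1, 81.6 and 79.7 TPM in SHMO pools and 146, 218 and 214 TPM in SBMO pools, against 55.4, 50.7 and 67.7 TPM in Ctrl pools (log2(FC) of 1.06 ± 0.17 (SE), adjusted p = 0.0059), and was higher in SBMO than in SHMO pools by 1.35 ± 0.19 (SE), adjusted p = 0.00666. All injected pools exceeded Ctrl in both genes, but with the 6 injected pools fitted as a single group FKBP5 was not called (adjusted p = 0.096). HSPB7 (ENSDARG00000104441), a small heat shock protein of heart and muscle, had 3.84, 1.75 and 2.07 TPM in SHMO pools and 2.07, 2.34 and 2.53 TPM in SBMO pools, against 7.62, 7.27 and 11.2 TPM in Ctrl pools (log2(FC) of -1.84 ± 0.25 (SE), adjusted p = 0.00331).

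Of 42 genes of the endoplasmic reticulum unfolded protein response, 5 were called higher and 3 lower, with called-higher counts between 0 and 7 with 1 pool left out (2 without Ctrl1, 0 without Ctrl2, 2 without Ctrl3, 3 without SHMO2, 3 without SHMO3). SDF2L1 (ENSDARG00000035631), a luminal chaperone partner, had 15.9, 16.1 and 14.9 TPM in SHMO pools and 14.3, 11.5 and 15.3 TPM in SBMO pools, against 9.93, 7.87 and 10.18 TPM in Ctrl pools (log2(FC) of 0.62 ± 0.12 (SE), adjusted p = 0.0105), and fell under the size threshold without Ctrl2 (adjusted p = 0.0459). ern1 (ENSDARG00000013997), the sensor kinase IRE1, had 8.53, 12.3 and 12.7 TPM in SHMO pools and 5.42, 13.7 and 9.71 TPM in SBMO pools, against 4.77, 3.35 and 3.55 TPM in Ctrl pools (log2(FC) of 1.32 ± 0.28 (SE), adjusted p = 0.0141), with an adjusted p of 0.0546 and 0.066 without Ctrl2 and Ctrl3. CHAC1 (ENSDARG00000070426), which degrades glutathione and is induced by ATF4, was lower in SHMO pools, with 191, 175 and 182 TPM in SHMO pools and 311, 496 and 462 TPM in SBMO pools, against 505, 420.3 and 501 TPM in Ctrl pools. The SBMO pools overlapped with Ctrl (log2(FC) of -0.81 ± 0.16 (SE), adjusted p = 0.0116), and without Ctrl3 the adjusted p was 0.0566. With the 6 injected pools as a single group it was 0.158.

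The circadian clock list was called in both directions, 10 higher and 9 lower of 47, and SBMO pools were lower than SHMO pools in 16 and higher in 11 of them. Only 5 and 2 of its genes had all injected pools above or below Ctrl. dbpa (ENSDARG00000063014) encodes a PAR bZIP activator that binds D-box elements. Its values were 36, 39.5 and 41.7 TPM in SHMO pools and 12.7, 11.7 and 17.4 TPM in SBMO pools, against 8.24, 7.94 and 7.02 TPM in Ctrl pools (log2(FC) of 1.55 ± 0.14 (SE), adjusted p = 0.00101). dbpb (ENSDARG00000057652), its paralogue, had 14.4, 20.4 and 20.02 TPM in SHMO pools and 2.57, 3.27 and 3.78 TPM in SBMO pools, against 2.49, 1.95 and 1.51 TPM in Ctrl pools (log2(FC) of 1.89 ± 0.19 (SE), adjusted p = 0.00124). nfil3-6 (ENSDARG00000087188), a repressor of the same elements, had 4.67, 4.62 and 5.22 TPM in SHMO pools and 22.3, 18.5 and 32.4 TPM in SBMO pools, against 37.5, 34.3 and 29.8 TPM in Ctrl pools (log2(FC) of -1.67 ± 0.16 (SE), adjusted p = 0.00118). In all 3 genes the SBMO pools lay nearer to Ctrl than the SHMO pools did, and the SBMO minus SHMO difference was -1.42 ± 0.16 (SE), adjusted p = 0.00277 for dbpa, -2.39 ± 0.22 (SE), adjusted p = 0.00143 for dbpb and 2.36 ± 0.19 (SE), adjusted p = 0.00101 for nfil3-6. With the 6 injected pools fitted as a single group, dbpb and nfil3-6 were not called (adjusted p = 0.0821 and 0.106).

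Of 26 cholesterol biosynthesis genes, 3 were called higher and 0 lower, and 0 lay to a single side in all injected pools. The called-higher count lay between 0 and 3 with 1 pool left out (0 without Ctrl1, 1 without Ctrl2, 1 without Ctrl3). The list's median log2(FC) was 0.50 in SHMO and -0.26 in SBMO pools. SBMO pools were lower than SHMO pools in 10 members and higher in 0. SQLE (ENSDARG00000079946), squalene epoxidase, had 16.8, 7.97 and 8.91 TPM in SHMO pools and 3, 1.03 and 2.36 TPM in SBMO pools, against 2.2, 1.21 and 1.91 TPM in Ctrl pools (log2(FC) of 1.34 ± 0.32 (SE), adjusted p = 0.0219). MVD (ENSDARG00000099336), mevalonate diphosphate decarboxylase, had 17.1, 11.9 and 11 TPM in SHMO pools and 5.94, 3.34 and 5.21 TPM in SBMO pools, against 4.34, 3.55 and 4.92 TPM in Ctrl pools (log2(FC) of 0.85 ± 0.19 (SE), adjusted p = 0.0178). The SHMO pools were above Ctrl and the SBMO pools overlapped with it, and the SBMO minus SHMO difference was -2.30 ± 0.37 (SE), adjusted p = 0.0108 for SQLE and -1.38 ± 0.22 (SE), adjusted p = 0.0107 for MVD. For SQLE the call was lost without Ctrl1 (0.054), Ctrl2 (0.0826) or Ctrl3 (0.0716), adjusted p in brackets, and for MVD the call was lost without Ctrl1 (0.0619) or Ctrl2 (0.0675), adjusted p in brackets. With the 6 injected pools as a single group the adjusted p was 0.201 for SQLE and 0.176 for MVD.

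In the hypoxia and glycolysis list, 6 of 54 were called higher and 2 lower, with called-higher counts between 1 and 6 with 1 pool left out (3 without Ctrl1, 2 without Ctrl2, 1 without Ctrl3, 2 without SHMO2, 2 without SHMO3, 2 without SBMO2). P4HA2 (ENSDARG00000010085), a collagen prolyl hydroxylase subunit, had 12.9, 11.6 and 10.9 TPM in SHMO pools and 5.93, 5.74 and 9.32 TPM in SBMO pools, against 5.03, 4.24 and 3.58 TPM in Ctrl pools (log2(FC) of 1.04 ± 0.17 (SE), adjusted p = 0.00637). ALDOC (ENSDARG00000057661), a copy of the brain aldolase gene, had 15.8, 21.5 and 23.3 TPM in SHMO pools and 30.4, 26.8 and 22 TPM in SBMO pools, against 14.6, 13.2 and 14.1 TPM in Ctrl pools (log2(FC) of 0.68 ± 0.16 (SE), adjusted p = 0.0195), and the call was lost without Ctrl1 (0.0623), Ctrl2 (0.0577) or Ctrl3 (0.0636), adjusted p in brackets. PKLR (ENSDARG00000042010), the pyruvate kinase of liver and red cells, went the other way, with 99.9, 76 and 93 TPM in SHMO pools and 90.9, 26.2 and 37.4 TPM in SBMO pools, against 224, 242 and 257 TPM in Ctrl pools (log2(FC) of -1.96 ± 0.30 (SE), adjusted p = 0.00523). The injected and Ctrl pools of each of these genes did not overlap.

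Of 48 collagen list members, 10 were called lower and 0 higher. The called-lower count lay between 1 and 15 with 1 pool left out (3 without Ctrl1, 2 without Ctrl2, 1 without Ctrl3, 4 without SHMO2, 4 without SHMO3, 6 without SBMO1, 4 without SBMO2). In 4 members (8.33%) all injected pools lay below Ctrl, no larger a share than the 8.6% of all genes tested. COL10A1 (ENSDARG00000054753), a collagen of hypertrophic cartilage and bone, had 3.8, 0.76 and 1.02 TPM in SHMO pools and 0.88, 0.21 and 0.54 TPM in SBMO pools, against 5.28, 9.28 and 15.1 TPM in Ctrl pools (log2(FC) of -3.30 ± 0.53 (SE), adjusted p = 0.00627). MATN1 (ENSDARG00000030215), the cartilage protein matrilin 1, had 44.1, 7.27 and 10.9 TPM in SHMO pools and 7.13, 7.99 and 7.32 TPM in SBMO pools, against 44.5, 52.2 and 73.5 TPM in Ctrl pools. SHMO1 lay beside the lowest Ctrl pool for MATN1 (log2(FC) of -2.39 ± 0.46 (SE), adjusted p = 0.0104), and the call was lost without Ctrl3 (adjusted p = 0.0605). In the whole collagen list the median log2(FC) was 0.02 in SHMO and -0.50 in SBMO pools. The list's level was 0.54 in SHMO1, above all Ctrl pools (0.139 to 0.174), and -0.006 and 0.115 in SHMO2 and SHMO3. In SBMO pools it was -0.412, -0.471 and -0.185. SBMO pools were lower than SHMO pools in 8 of its members and higher in 0.

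Of 46 inflammation and wound genes, 8 were called lower and 1 higher, with called-lower counts between 2 and 15 with 1 pool left out (3 without Ctrl1, 5 without Ctrl2, 2 without Ctrl3, 5 without SHMO2, 5 without SHMO3, 5 without SBMO2, 15 without SBMO3). SOCS1 (ENSDARG00000038095), a feedback inhibitor of cytokine signalling, had 7.71, 3.67 and 4.81 TPM in SHMO pools and 5.82, 6.76 and 6.36 TPM in SBMO pools, against 16.9, 14.4 and 17.3 TPM in Ctrl pools (log2(FC) of -1.51 ± 0.21 (SE), adjusted p = 0.00347). TIMP4 (ENSDARG00000100795), a metalloproteinase inhibitor, had 5.32, 6.52 and 7.15 TPM in SHMO pools and 32.3, 14.2 and 10.8 TPM in SBMO pools, against 33.7, 24.4 and 36.1 TPM in Ctrl pools (log2(FC) of -1.60 ± 0.29 (SE), adjusted p = 0.00851), and the adjusted p was 0.0506 without Ctrl3. SBMO1 of TIMP4 lay in the Ctrl range. irg1l (ENSDARG00000062788), an itaconate-producing enzyme gene of macrophages and stressed epidermis, had 5.71, 3.45 and 8.03 TPM in SHMO pools and 1.13, 2.32 and 5.67 TPM in SBMO pools, against 2.12, 0.9 and 1.1 TPM in Ctrl pools (log2(FC) of 1.42 ± 0.45 (SE), adjusted p = 0.0499), with overlapping groups, and the call was lost without Ctrl1 (0.0684), Ctrl2 (0.156), Ctrl3 (0.169), SBMO2 (0.0891), SBMO3 (0.0591), SHMO1 (0.0624), SHMO2 (0.0606) or SHMO3 (0.108), adjusted p in brackets. For the complement and acute phase list, 4 of 30 were called lower and 1 higher, with called-lower counts between 0 and 12 with 1 pool left out (1 without Ctrl1, 0 without Ctrl2, 0 without Ctrl3, 12 without SHMO1, 1 without SHMO2, 1 without SHMO3, 2 without SBMO1, 1 without SBMO2). mbl2 (ENSDARG00000068220), a mannose-binding lectin, had 5.19, 0.74 and 1.07 TPM in SHMO pools and 1.3, 0.39 and 1.5 TPM in SBMO pools, against 5.37, 6.44 and 10.6 TPM in Ctrl pools (log2(FC) of -2.47 ± 0.56 (SE), adjusted p = 0.0186), with adjusted p of 0.0589 and 0.0916 without Ctrl2 and Ctrl3. The complement gene c3b.2 (ENSDARG00000001818) (8.94, 2.28 and 2.84 TPM in SHMO pools and 0.79, 0.61 and 1.33 TPM in SBMO pools, against 3.8, 5.41 and 5.66 TPM in Ctrl pools) and the pentraxin gene crp5 (ENSDARG00000056498) (28.4, 37.3 and 25.7 TPM in SHMO pools and 3.47, 28.2 and 31.1 TPM in SBMO pools, against 2.36, 3.36 and 6.6 TPM in Ctrl pools) had overlapping groups. Their log2(FC) of -1.37 and 2.42 passed the test with all pools. In the whole complement and acute phase list the median log2(FC) was -0.03 in SHMO and -1.27 in SBMO pools. The list's level was 1.271 in SHMO1, above all Ctrl pools (0.002 to 0.807), and -0.179 and 0.12 in SHMO2 and SHMO3. In SBMO pools it was -1.273, -0.866 and -0.055, so SHMO1 weighs on this difference. SBMO pools were lower than SHMO pools in 5 of its members and higher in 0. For c3b.2 the call was lost without Ctrl1 (0.0623), Ctrl2 (0.118), Ctrl3 (0.145), SBMO1 (0.0594), SBMO2 (0.0786), SHMO2 (0.076) or SHMO3 (0.0875), adjusted p in brackets, and for crp5 the call was lost without Ctrl1 (0.096), Ctrl2 (0.0818), Ctrl3 (0.0644), SBMO2 (0.0564), SHMO2 (0.0628) or SHMO3 (0.0585), adjusted p in brackets.

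Genes that handle sialic acid were read because the oligosaccharides carry it. Of 41 members, 6 were called lower and 1 higher, against 9.47% and 6.94% of all genes, and 6 lay below and 3 above Ctrl in all 6 injected pools. The called-lower count lay between 2 and 8 with 1 pool left out (2 without Ctrl1, 3 without Ctrl2, 2 without Ctrl3, 3 without SHMO2, 3 without SHMO3), and the median log2(FC) was -0.0071, a value whose sign changed with the processing. NEU3 (ENSDARG00000010047), a sialidase gene of the family that acts on gangliosides, had 2.26, 3 and 3.54 TPM in SHMO pools and 3.05, 1.91 and 2.01 TPM in SBMO pools, against 8.01, 6.72 and 11.4 TPM in Ctrl pools (log2(FC) of -1.72 ± 0.22 (SE), adjusted p = 0.00298). slc17a5 (ENSDARG00000055190), the lysosomal exporter of sialic acid, had 6.57, 4.79 and 4.24 TPM in SHMO pools and 4.66, 4.25 and 4.72 TPM in SBMO pools, against 9.22, 7.88 and 7.59 TPM in Ctrl pools (log2(FC) of -0.78 ± 0.15 (SE), adjusted p = 0.00947). GNE (ENSDARG00000099771), which starts sialic acid synthesis, was called higher, with 11.3, 16.9 and 13.9 TPM in SHMO pools and 9.95, 13.1 and 12.8 TPM in SBMO pools, against 10.1, 6.84 and 6.09 TPM in Ctrl pools (log2(FC) of 0.74 ± 0.19 (SE), adjusted p = 0.0243). Its groups overlapped as deposited, and the call was lost without Ctrl2 (0.0749), Ctrl3 (0.103), SBMO2 (0.0518), SHMO2 (0.0566) or SHMO3 (0.0593), adjusted p in brackets.

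Core cell machinery was called rarely. Of 90 nuclear subunits of oxidative phosphorylation, 2 were called higher and 2 lower, with called-lower counts between 1 and 3 with 1 pool left out (1 without Ctrl1, 1 without SHMO1, 1 without SBMO3). ndufv3 (ENSDARG00000090389), of complex I, had 125, 159.8 and 143 TPM in SHMO pools and 97.1, 126 and 114 TPM in SBMO pools, against 88.5, 70.21 and 55.1 TPM in Ctrl pools (log2(FC) of 0.82 ± 0.16 (SE), adjusted p = 0.0113), and an adjusted p of 0.0503 without Ctrl3. COX5B (ENSDARG00000068738), of complex IV, had overlapping groups, with 72.9, 71.9 and 71.5 TPM in SHMO pools and 27, 81.5 and 66.8 TPM in SBMO pools, against 39.1, 21.1 and 27.6 TPM in Ctrl pools (log2(FC) of 1.09 ± 0.32 (SE), adjusted p = 0.0375), and the call was lost without Ctrl1 (0.0633), Ctrl2 (0.127), Ctrl3 (0.124), SBMO2 (0.0612), SBMO3 (0.0624), SHMO2 (0.075) or SHMO3 (0.0791), adjusted p in brackets. cox8b (ENSDARG00000097209), also of complex IV, had 35.6, 26.5 and 25.5 TPM in SHMO pools and 41.4, 20.8 and 19 TPM in SBMO pools, against 65.5, 56 and 76.3 TPM in Ctrl pools (log2(FC) of -1.29 ± 0.23 (SE), adjusted p = 0.00806). Of 80 cytosolic ribosomal protein genes 0 were called by limma, while 11 (13.75%) lay below Ctrl in all injected pools and 0 above. Of all genes tested 8.6% lay below and 8.94% above. The median log2(FC) of the ribosomal protein genes was -0.13. Of 44 proteasome genes 1 was called lower and 0 higher. Of 10 interferon genes tested 0 were called with all pools and 3 were called lower without SHMO1, and of 21 myeloid and lymphoid genes 1 was called higher and 1 lower. In the endothelium list of 17 genes, 1 was called higher and 1 lower.

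Outside the lists, the genes with the largest rises among those that met the naming rule carried clone-based or numbered names. si:ch211-209l18.4 (ENSDARG00000090847) had 7.3, 5.46 and 6.52 TPM in SHMO pools and 3.38, 5.89 and 6.5 TPM in SBMO pools, against 0.32, 0.33 and 0.2 TPM in Ctrl pools, which is 2.91 log2 units between the nearest pools (log2(FC) of 3.91 ± 0.25 (SE), adjusted p = 0.000244). si:dkeyp-116a7.2 (ENSDARG00000097137) had 131, 125 and 159.6 TPM in SHMO pools and 57.8, 70.0 and 107 TPM in SBMO pools, against 17.6, 17.4 and 20.03 TPM in Ctrl pools (log2(FC) of 2.45 ± 0.19 (SE), adjusted p = 0.000586). si:ch211-281l24.3 (ENSDARG00000068637) had 16.4, 9.45 and 13 TPM in SHMO pools and 0.47, 11.7 and 10.18 TPM in SBMO pools, against 0.14, 0.2 and 0.29 TPM in Ctrl pools. Its SBMO1 was near Ctrl while the other injected pools were high (log2(FC) of 4.55 ± 0.82 (SE), adjusted p = 0.00851). lnc.363 (ENSDARG00000105162) (3.21, 6.28 and 5.63 TPM in SHMO pools and 8.29, 9.54 and 7.44 TPM in SBMO pools, against 1.43, 1.75 and 0.5 TPM in Ctrl pools) and si:ch211-213a13.11 (ENSDARG00000074546) (3.69, 6.49 and 6.07 TPM in SHMO pools and 7.47, 7.92 and 5.31 TPM in SBMO pools, against 1.14, 0.77 and 1.92 TPM in Ctrl pools) had log2(FC) of 2.42 and 2.21. Among genes that met the naming rule, the first with a known product in the order of gaps above Ctrl was DYNLL2 (ENSDARG00000005172), a dynein light chain, with 48.9, 76.9 and 71.4 TPM in SHMO pools and 49.5, 58.7 and 55.9 TPM in SBMO pools, against 26.8, 23.2 and 23.2 TPM in Ctrl pools (log2(FC) of 1.26 ± 0.16 (SE), adjusted p = 0.00298). actb1 (ENSDARG00000037746), the cytoplasmic beta-actin often used as a reference gene, had 1545, 1583 and 1485 TPM in SHMO pools and 1344, 1109 and 1419 TPM in SBMO pools, against 1135, 833 and 783 TPM in Ctrl pools (log2(FC) of 0.61 ± 0.11 (SE), adjusted p = 0.0074). All injected pools exceeded Ctrl after scaling. For actb1 the change fell under the size threshold without Ctrl3 (adjusted p = 0.0373).

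Among called genes lying above Ctrl, those of highest level were 2 subunits of the respiratory chain encoded in the mitochondrial genome. Other mitochondrial genes of higher level, MT-CO1, MT-CO3 and MT-ATP6, also lay above Ctrl but were not called, and are named here after their values were seen. MT-CYB (ENSDARG00000063924), cytochrome b of complex III, had 6774, 6394 and 7888 TPM in SHMO pools and 6996, 6862 and 6867 TPM in SBMO pools, against 4404, 4230 and 5083 TPM in Ctrl pools (log2(FC) of 0.58 ± 0.10 (SE), adjusted p = 0.00806). MT-ND4 (ENSDARG00000063917), of complex I, had 2636, 2678 and 3154 TPM in SHMO pools and 2477, 2726 and 2753 TPM in SBMO pools, against 1664, 1584 and 1936 TPM in Ctrl pools (log2(FC) of 0.64 ± 0.11 (SE), adjusted p = 0.00806). Injected pools of both lay above Ctrl after scaling, and for MT-CYB the call was lost without Ctrl1 (0.0404), Ctrl2 (0.0425), SBMO2 (0.0216) or SHMO3 (0.0225), adjusted p in brackets, and by size where that p is at most 0.05, while for MT-ND4 the call was lost without Ctrl1 (adjusted p = 0.0401), and by size where that p is at most 0.05.

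Among the falls, ifi27.5 (ENSDARG00000092725), of the interferon alpha-inducible protein 27 family, had 1, 1.48 and 0.97 TPM in SHMO pools and 2.11, 0.48 and 0.26 TPM in SBMO pools, against 11.8, 10.9 and 13.8 TPM in Ctrl pools (log2(FC) of -3.67 ± 0.46 (SE), adjusted p = 0.00282). si:ch73-359m17.5 (ENSDARG00000101088) had 0, 0.07 and 0.14 TPM in SHMO pools and 5.19, 0.14 and 0.09 TPM in SBMO pools, against 14.6, 13.7 and 20.4 TPM in Ctrl pools (log2(FC) of -5.68 ± 0.89 (SE), adjusted p = 0.00555). SBMO1 was far above the other injected pools there. Copies of small nuclear RNA genes of the spliceosome also met the rule. U1 (ENSDARG00000113445) was listed at 0 in all 6 injected pools and had 4.28, 305 and 3.46 TPM in Ctrl pools. rnu2 (ENSDARG00000117035) had 0, 0 and 0 TPM in SHMO pools and 1.3, 0 and 0 TPM in SBMO pools, against 4.69, 38.3 and 3.6 TPM in Ctrl pools. Ctrl2 held most of the signal in both, these genes have near-identical copies, and poly(A) capture is not made to recover them, so no fold change is given. At the filter, si:dkey-246g23.4 and si:ch211-215p11.5 lay just inside with a mean of 1.0 TPM, and ugt1b7 and Metazoa_SRP just outside with 0.999 and 0.998 TPM.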

How the data were processed

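RNA of whole 5 dpf larvae was sequenced in 9 pools, 3 each of SHMO, SBMO and Ctrl. The authors deposited TPM values per gene for every pool, and the submitters' processing notes name STAR, RSEM and the GRCz11 build. The table holds no counts, so the depth per pool is unknown and no counting error is given. The number of pools limits the precision.

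TPM was divided by a median-ratio factor per pool (0.918 to 1.07), 0.1 was added and log2 taken, and genes averaging 1 TPM or more across the 9 pools were tested with limma 3.58.1 in R 4.3.3 (a mean per group, eBayes with trend, Benjamini-Hochberg adjustment over all 19051 genes). Fold changes on this scale understate the change of low genes. The contrast was the mean of SHMO and SBMO minus Ctrl, and SBMO minus SHMO was taken from the same model, all tests two-sided. Whether the groups overlap was read from scaled TPM. Replicates are called biological in the labels without further detail, and the paper describes them as different pools of larvae. The p-values thus measure spread between pools of larvae, and may not cover spread between spawnings or injection sessions. The limma step was tested on simulated data. Symbols were matched for 29201 of 32520 genes from the gene table supplied for this work, and some are those of human counterparts.

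Genes named are, in each direction, the 5 with the largest change, the 4 with the widest gap and the 4 with the highest level among called genes whose groups did not overlap and whose higher side averaged at least 5 TPM, and, for each list with at least 3 called members, the 2 with the smallest p in the main direction and the 1 in the other. The gene lists, these members and the rule were chosen with earlier results of these data known, so no list count is independent evidence. Alternatives changed the pseudocount, the TPM minimum, the scaling, the eBayes options, the groups in the model, a block by replicate number, the fold threshold and the pools included (20 in all). Python 3.11.15 and matplotlib 3.10.9 were used for counts and plots.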

Additional observations from a re-analysis of the deposited data

Results flagged for a closer look

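Among the 91 named genes, 10 had an injected pool that lay far from the other 5, by the gap of that pool over the range of the 6, a limit that chance passes in about 1 of 20 groups. SBMO1 was that pool in 5 genes, SHMO1 in 4 and SBMO2 in 1. SBMO1 was lowest in si:ch211-281l24.3 (0.835), crp5 (0.852) and COX5B (0.761), and highest in rnu2 (1.0) and si:ch73-359m17.5 (0.766). All other injected pools of rnu2 were listed at 0. SHMO1 was highest in SLC4A1 (0.629), MATN1 (0.761) and slc17a5 (0.699), and lowest in crx (0.67). SBMO2 was lowest in LIG1 (0.665).

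In 15 of the 91 named genes the SBMO and SHMO pools differed past the threshold, and the values below are SBMO minus SHMO on the log2 scale from limma. SBMO pools were lower in the digestive and liver genes TM4SF5 (-1.86), F7 (-1.41), CYP7A1 (-1.87) and c3b.2 (-1.96). They were lower in the sterol synthesis genes SQLE (-2.3) and MVD (-1.38), the chaperone gene HSP90AA1 (-1.26) and the clock output genes dbpa (-1.42) and dbpb (-2.39). SBMO pools were higher in nfil3-6 (2.36), GUCA1A (1.96), TIMP4 (1.51), FKBP5 (1.35), CHAC1 (1.27) and GADD45A (ENSDARG00000104571, 0.75).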

How the results depend on the processing

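The injected against Ctrl comparison called 3127 genes. The count was 1870 with a minimum mean of 5 TPM (11711 genes tested), 1977 with the 6 injected pools as a single group, 1257 with a log2 fold change of at least 1, and between 854 and 4288 with 1 pool left out. The number of genes whose groups did not overlap was 2104 with the 5 TPM minimum, and between 3445 and 6493 (without SHMO replicate 1) with 1 pool left out. With fewer pools the rule for groups that do not overlap is easier to meet, so that rise is partly set by the rule. Why the number of called genes moved was not tested. With the replicate block the count was 2483. Between groups, deviations from group means had correlations of -0.259 to 0.152 in same-numbered pools and -0.308 to 0.333 in the others. With 3 pools in a group these values cannot decide whether the numbers pair pools. The share of called genes that were higher was 42.3%, 47.0% without scaling and 48.5% with quantile normalization. Medians near 0 changed sign. For sialic acid handling (-0.0071) the median was 0.119 with the 5 TPM minimum, 0.0179 without scaling, 0.0377 with quantile normalization, and -0.0169 to 0.0347 with 1 pool left out. For cholesterol biosynthesis it was -0.026 with no TPM minimum. With 1 pool left out the median ran from -0.0553 to 0.125 for the circadian clock, -0.0245 to 0.1004 for hypoxia and glycolysis, and -0.177 to 0.0435 for the p53 response. Of 91 named genes, 48 kept their call in every alternative in which they were tested. In at least 1 alternative 43 lost it (31 without Ctrl replicate 3), and 0 reversed. Named genes averaging under 5 TPM, such as CEL, were not tested with the 5 TPM minimum and so had 19 alternatives. The named genes were picked for small p, large change, wide gap or high level, so they do not stand for all calls. Of the 3127 called genes, 791 were also called without Ctrl replicate 3. TPM values without counts give no depth for low genes.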

Other observations

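Several further groups of genes were read after their values had been seen, and they are given as values without a test of the group. Of 13 protein-coding genes of the mitochondrial genome, 2 were called higher and 0 lower, 8 lay above Ctrl in all injected pools and 0 below, and the median log2(FC) was 0.41. They took 10.9%, 8.61% and 11.8% of all TPM in SHMO pools and 10.7%, 9.9% and 10.7% in SBMO pools, against 6.56%, 7.85% and 8.63% in Ctrl pools. SHMO2 was the lowest injected pool and lay just under Ctrl3. Of 90 nuclear subunits of the same complexes, 2 were called higher and 2 lower.

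Of 33 genes of the retinoid cycle and retinoid transport, which recycle the visual pigment chromophore and carry vitamin A, 15 were called lower and 3 higher, and 14 lay below and 2 above Ctrl in all injected pools, with a median log2(FC) of -0.59. RPE65 (ENSDARG00000007480), the isomerase of the retinal pigment epithelium, had 90.2, 60.4 and 49.3 TPM in SHMO pools and 9.77, 15.6 and 41.5 TPM in SBMO pools, against 149, 103 and 122 TPM in Ctrl pools (log2(FC) of -1.85 ± 0.37 (SE), adjusted p = 0.0122). The RPE65 copies ENSDARG00000054420 and ENSDARG00000094752 were of lower level and were not called (log2(FC) of 0.07 and -0.16). rlbp1b (ENSDARG00000045808), a retinaldehyde-binding protein gene, had 84.1, 52.1 and 45.9 TPM in SHMO pools and 17.9, 26.2 and 51.6 TPM in SBMO pools, against 119, 104 and 142 TPM in Ctrl pools (log2(FC) of -1.58 ± 0.30 (SE), adjusted p = 0.0104). RBP4, given in the report, belongs to the same group. RPE65 and rlbp1b are also counted in the phototransduction list, so that list and this group overlap.

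Of 29 spliceosomal small nuclear RNA genes tested, 5 were called lower and 0 higher, and 2 lay below Ctrl in all injected pools. Some entries held the same values in every pool, such as copies of U6 with signal in Ctrl1 alone. The 29 are thus not separate results, and the counts are not read as a change of these RNAs.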
